A study of Homo sapiens with 18 samples.

Results

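The gene set described here comprised 36 human genes of MYC signalling, ribosome assembly and translation, picked by symbol from the 60662 genes of the count table. All 36 were found, and all 36 passed the filter on low counts that left 18592 genes for testing. They fall into 8 roles, which are 4 genes of the MYC network, 4 nucleolar scaffold proteins and chaperones, 4 proteins each of the box C/D and box H/ACA small nucleolar ribonucleoproteins (snoRNPs), 6 large subunit and 4 small subunit assembly factors, 5 RNA polymerase I genes and 5 translation factors. RNA was sequenced from MCF10A, an immortalised and non-malignant human breast epithelial cell line that grows as a basal-like epithelium. Every group was plated on soft polyacrylamide gels carrying Matrigel, a basement membrane extract rich in laminin, in medium with horse serum, EGF, insulin, cholera toxin and hydrocortisone. Once the cells had attached, the 3D groups received medium with 2% Matrigel, and the 2D groups received fresh medium without it. The groups were 3D at timepoints 1, 2 and 3 with 3 libraries each, and 2D at timepoints 1, 2 and 3 with 3, 3 and 2 libraries used. The protocol lists harvests 3, 12 and 21 h after plating, which are matched to timepoints 1, 2 and 3 only by their order. All libraries come from 1 cell line. The labels do not say whether they come from separate cultures, so each p-value reflects only how far these libraries spread, which may be technical.

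MYC is a transcription factor that binds DNA as a dimer with MAX, mostly at the E-box sequence CACGTG. MXD1, MXI1 and MNT bind MAX as well and repress the same kind of site. Genes of ribosome synthesis are the best known group of MYC targets. RNA polymerase I transcribes ribosomal RNA in the nucleolus, box C/D and box H/ACA snoRNPs modify that RNA, and assembly factors cut, fold and export the subunits. Translation factors such as EIF4E then set how much the ribosomes are used.

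The E-box was searched for in the window from 250 bases before to 50 bases after the start site of each gene, with promoter sequences from RefSeq (build GRCh38.p14). CACGTG is its own reverse complement, so 1 search covers both strands, and it overlaps no other motif searched. Of the 36 genes, 29 had an entry, and MYC, NOLC1, NOP58, BOP1, RRS1, RRP12 and EIF4EBP1 had none. The motif was present in 9 of 29 windows (31.0%), against 2030 of all 27303 windows (7.44%). It was present in BYSL, UTP20 and NAT10 of the small subunit factors, in FBL and RRP9 of the box C/D snoRNPs, and in NOP10, NOP2, PES1 and EIF4E. None of the 5 RNA polymerase I genes carried it. Among other MYC targets it was found in 14 of 30 windows and among cytosolic ribosomal protein genes in 3 of 63. A match describes the letters of the window and says nothing of whether MYC was bound there. Of the 7 genes with a window that passed the test for a difference in at least 1 comparison without the replicate block described further on, 3 carried the motif, against 6 of the other 22.

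**Figure D1:**
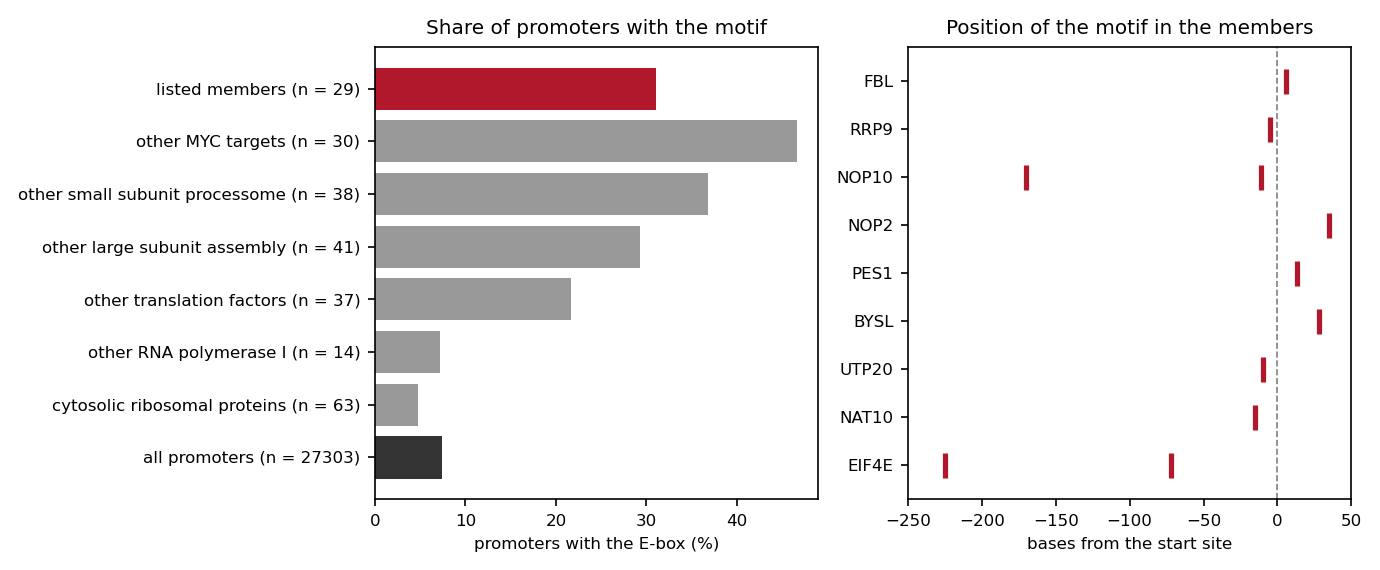
Left, percent of promoter windows (250 bases before to 50 bases after the start site) that hold the E-box CACGTG, for the listed genes, for other gene lists and for all windows. Right, position in bases from the start site of each of the 11 matches in the 9 listed genes, of which 9 lie within 72 bases of the start; NOP10 and EIF4E have 2 each.

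Promoters are printed for POLR1B, which passed in the most comparisons without a replicate block, for MXD1, which came next by the smallest p, and for NOP2, EIF4E and NOP10, the genes that passed and carry the motif. The last 3 were chosen after their values were seen. Capitals mark the E-box, and a sequence wholly in lower case has none. The windows are chr2:112541786-112542085 (plus strand) for POLR1B, chr2:69914859-69915158 (plus strand) for MXD1, chr12:6568242-6568541 (minus strand) for NOP2, chr4:98929084-98929383 (minus strand) for EIF4E and chr15:34343087-34343386 (minus strand) for NOP10, each written 5′ to 3′ along the gene.
POLR1B: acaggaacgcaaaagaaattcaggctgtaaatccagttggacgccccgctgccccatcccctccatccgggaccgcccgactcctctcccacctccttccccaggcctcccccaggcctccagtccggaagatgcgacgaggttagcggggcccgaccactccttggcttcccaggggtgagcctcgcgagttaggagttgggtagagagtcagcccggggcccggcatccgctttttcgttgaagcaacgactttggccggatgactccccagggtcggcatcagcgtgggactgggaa
MXD1: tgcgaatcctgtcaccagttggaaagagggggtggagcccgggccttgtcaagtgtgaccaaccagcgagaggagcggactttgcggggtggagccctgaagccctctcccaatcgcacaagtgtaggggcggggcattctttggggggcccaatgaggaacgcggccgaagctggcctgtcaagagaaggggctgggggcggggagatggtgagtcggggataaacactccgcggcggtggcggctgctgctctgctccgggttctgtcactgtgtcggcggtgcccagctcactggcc
NOP2: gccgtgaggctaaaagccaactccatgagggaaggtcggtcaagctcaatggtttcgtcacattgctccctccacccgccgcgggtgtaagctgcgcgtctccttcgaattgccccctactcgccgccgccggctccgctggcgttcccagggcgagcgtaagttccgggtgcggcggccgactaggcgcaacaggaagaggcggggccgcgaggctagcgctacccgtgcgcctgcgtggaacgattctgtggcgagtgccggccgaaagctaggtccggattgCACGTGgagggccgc
EIF4E: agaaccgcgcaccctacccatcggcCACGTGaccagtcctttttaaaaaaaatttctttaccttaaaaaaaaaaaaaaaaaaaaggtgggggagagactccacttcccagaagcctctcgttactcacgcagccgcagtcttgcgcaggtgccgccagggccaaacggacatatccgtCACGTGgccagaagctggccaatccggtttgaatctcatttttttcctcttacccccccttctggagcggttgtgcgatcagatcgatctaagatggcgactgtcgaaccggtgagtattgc
NOP10: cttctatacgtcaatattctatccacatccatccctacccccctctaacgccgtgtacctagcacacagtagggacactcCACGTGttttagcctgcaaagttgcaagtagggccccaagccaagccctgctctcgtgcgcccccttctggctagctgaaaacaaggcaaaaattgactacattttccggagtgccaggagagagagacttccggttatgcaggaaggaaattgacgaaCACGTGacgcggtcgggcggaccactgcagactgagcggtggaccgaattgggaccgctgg

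Library totals in the deposited headers ran from 9.31 M to 17.7 M. The gene counts added up to 49.8 M to 93.9 M per library, 4.73 to 5.73 times those totals, so levels in counts scaled per library (CPM) are compared here mainly between libraries. Marker sums, and the shares given for overlapping genes and pseudogenes, set different genes side by side and are only rough. The replicate 3 libraries of timepoint 1 stood apart in both cultures. Their 10 most abundant genes took 11.6% to 11.7% of counts, against 7.47% to 8.99% in the other libraries of that timepoint, and mitochondrial genes took 0.541% to 0.658% against 0.976% to 1.25%. All 12 basal epithelial markers passed the filter on low counts and summed to 5791 to 15571 CPM. Summed markers of other cell types reached at most 268 CPM for fibroblasts (of which DCN gave most, with COL3A1 at 0), 39.4 CPM for immune cells (CD3E at 0) and 7.17 CPM for endothelium. The list of hormone receptor luminal markers summed to 469 to 1489 CPM, of which KRT8 and KRT18, keratins of simple epithelium, gave most, with PGR at 0 and ESR1 at 0.606 CPM or less. In RNA from whole cultures, a change in the make-up of the cells and a change of RNA per cell cannot be told apart.

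MYC was lower at timepoint 2 than at timepoint 1 in 3D. In 3D, MYC had 919, 688 and 915 CPM at timepoint 1, 557, 586 and 631 CPM at timepoint 2 and 606, 710.1 and 682 CPM at timepoint 3. In 2D it had 879.8, 711 and 861 CPM at timepoint 1, 669, 644 and 686 CPM at timepoint 2 and 785 and 793 CPM at timepoint 3. Every 3D library of timepoint 2 lay under every 3D library of timepoint 1, and at timepoints 2 and 3 every 3D library lay under every 2D library. The difference of timepoint 2 against timepoint 1 in 3D was -0.51 ± 0.15 on the log2 scale (SE here and throughout; adjusted p = 0.0300, edgeR quasi-likelihood test). Leaving out 3D timepoint 1 replicate 1 or 3, or any library of 3D timepoint 2, gave adjusted p of 0.0537 to 0.115 with the same sign, and with no filter on low counts it was 0.117. The difference was -0.29 in 2D (adjusted p = 0.300) and -0.34 for timepoint 3 against timepoint 1 in 3D (adjusted p = 0.158), and neither passed. Between 3D and 2D it was -0.17 ± 0.15 at timepoint 2 and -0.24 ± 0.16 at timepoint 3, with adjusted p of 0.535 and 0.421. With the replicate block, explained below, MYC passed at timepoint 2 against 1 in 3D, and in 5 of 6 fits that left out 1 library. For timepoint 3 against 1 in 3D it did not pass with the block. There it passed with header totals as scale, without 3D timepoint 1 replicate 2 or without 3D timepoint 3 replicate 2.

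MXD1, a repressor that competes with MYC for MAX, fell over time in 3D. In 3D, MXD1 had 10.4, 16.2 and 12.7 CPM at timepoint 1, 6.53, 6.46 and 7.98 CPM at timepoint 2 and 9.01, 7.27 and 8.08 CPM at timepoint 3. In 2D it had 9.53, 13.5 and 12.3 CPM, 9.53, 8.40 and 12.4 CPM and 9.94 and 11.7 CPM at the 3 timepoints in that order. All later 3D libraries lay under all 3D libraries of timepoint 1, while the 2D groups overlapped over time. The log2 difference from timepoint 1 in 3D was -0.91 ± 0.20 at timepoint 2 (adjusted p = 0.00849) and -0.69 ± 0.20 at timepoint 3 (adjusted p = 0.0392). Without 3D timepoint 1 replicate 2, the highest library, adjusted p was 0.0540 at timepoint 2 and 0.198 at timepoint 3. At timepoint 3 the call was also lost without any 1 library of that timepoint (0.0611 to 0.113). In 2D the differences were -0.22 and -0.12 (adjusted p = 0.651 and 0.821), and the difference between the cultures in the change to timepoint 2 was -0.69 ± 0.29 (adjusted p = 0.562). At timepoint 2 the 3D libraries also lay wholly under the 2D libraries, a difference of -0.53 ± 0.20 that did not pass (adjusted p = 0.165).

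MAX, the shared partner, ranged over 81.1 to 128 CPM in the 17 libraries and passed with the replicate number as a block. This block fits a term shared by the libraries of 1 replicate number. With it MAX rose in 3D between timepoints 1 and 3 by 0.39 ± 0.12 on the log2 scale (adjusted p = 0.0261, against 0.0880 without the block). Without 3D timepoint 1 replicate 3 it passed in that comparison without the block as well. MXI1, a repressor of the same family as MXD1, had 118, 113 and 141 CPM in 3D and 158 and 165 CPM in 2D at timepoint 3. These groups did not overlap. With the block MXI1 was lower in 3D, with a log2 difference of -0.43 ± 0.13 (adjusted p = 0.0459), and without it the difference was -0.38 ± 0.17 (adjusted p = 0.240).

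**Figure D2:**
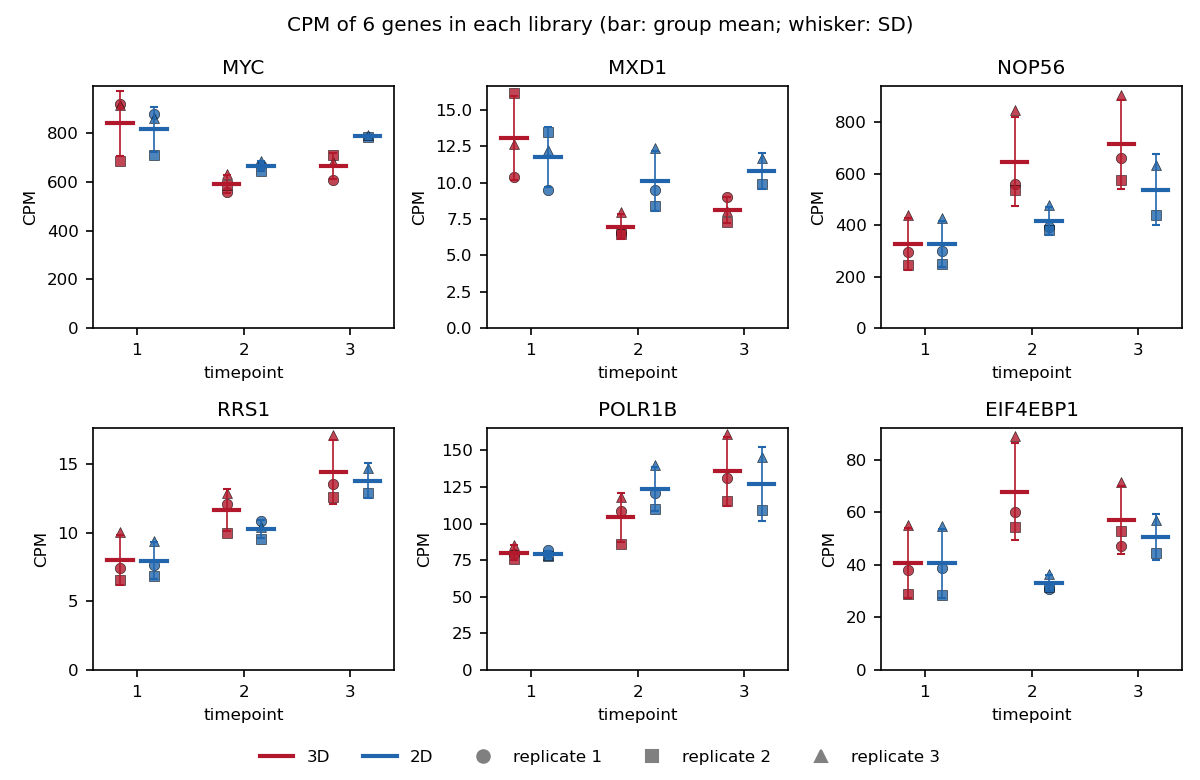
CPM (linear axis from 0) of MYC, MXD1, NOP56, RRS1, POLR1B and EIF4EBP1 in each library at the 3 timepoints, 3D left of 2D; symbols mark the replicate number, bars the group mean and whiskers the SD (n = 3, or 2 for 2D at timepoint 3). MYC and MXD1 were lower at timepoint 2 than at timepoint 1 in 3D, POLR1B and RRS1 stood higher at timepoint 3 in both cultures, and EIF4EBP1 at timepoint 2 was 54.5 to 88.9 CPM in 3D, against 30.9 to 36.7 CPM in 2D.

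At timepoint 3 against timepoint 1 in 3D, most of the set had log2 differences above 0. There 7 of 36 genes passed (19.4%), against 11.0% of all tested genes. NOP56, NOP2, NOP16, RRS1, POLR1B and EIF4E rose and MXD1 fell, where 4.07% of all tested genes rose and 6.95% fell. DESeq2 called 7 (15.2% of all). With the block 19 of 36 passed (52.8%, against 23.9% of all tested genes), of which 18 rose and MXD1 fell, where 11.4% of all rose and 12.5% fell. The CPM ranges of the timepoints did not overlap for 11 of 36 genes, against 26.9% of all. The median log2 difference of the 36 was 0.40, against 0.04 over all tested genes, and 32 of 36 lay above 0. At timepoint 2 against timepoint 1 in 3D, 5 of 36 passed (13.9%), which is near the 15.1% of all tested genes. NOP56, NOP10 and NOP16 rose and MYC and MXD1 fell, where 7.31% of all tested genes rose and 7.76% fell. DESeq2 called 6 (19.7% of all), and with RLE scaling in place of TMM only NOP56 of the higher genes passed. With the block 13 passed, 11 higher and 2 lower (36.1%, against 28.4% of all, 14.8% higher and 13.6% lower). Ranges did not overlap for 8 genes, against 28.7% of all. With library totals from the headers as scale, the split with the block was 7 higher and 5 lower, against 2069 higher and 3144 lower over all tested genes, and the median of all genes was -0.11. The comparisons with timepoint 1 share its libraries and are not independent of each other.

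Other measures differed between these groups as well. Mitochondrial genes took 0.364% to 0.482% of counts at timepoint 2 and 0.398% to 0.533% at timepoint 3 in 3D, against 0.541% to 1.21% at timepoint 1. The 12 basal epithelial markers summed to 7795 to 9490 CPM at timepoint 2 and 5791 to 8949 CPM at timepoint 3, against 8934 to 15121 CPM at timepoint 1 in 3D. The luminal markers summed to 713 to 829 CPM at timepoint 2 and 469 to 623 CPM at timepoint 3, against 846 to 1416 CPM at timepoint 1 in 3D. Mitochondrial shares and luminal sums of the later timepoints lay wholly under those of timepoint 1, and basal sums overlapped. Their part in the result was not tested.

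These counts changed when single libraries were left out. For timepoint 2 against 1 in 3D the count of 5 became 1, 1 and 8 without replicate 1, 2 and 3 of 3D timepoint 1, and 2, 2 and 1 without replicate 1, 2 and 3 of 3D timepoint 2. With the block it was 7 in place of 13 without 3D timepoint 1 replicate 1. For timepoint 3 against 1 in 3D the count of 7 became 3, 1 and 13 without replicate 1, 2 and 3 of 3D timepoint 1, and 3 and 1 without replicate 1 and 3 of 3D timepoint 3. The 3D timepoint 1 replicate 3 library is the one that stood apart, and POLR1B at timepoint 3 was called in each of the 6 fits that left out 1 library.

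Calls made with the block and not without it also depended on single libraries. For timepoint 3 against 1 in 3D, GNL3, RRP9, DKC1 and POLR1A kept the block call in each of the 6 fits that left out 1 library. NOLC1 and EIF4EBP1 kept it in 4, NOP10 and WDR12 in 3, NAT10 and EEF1A1 in 2, MAX in 1 and RRN3 in 0 of those 6 fits. For timepoint 2 against 1 in 3D, RRS1, EIF4EBP1 and EEF1A1 kept it in all 6 fits, NHP2, NOP2 and POLR1B in 2, POLR1A in 1 and RRP9 in 0. In 2D at timepoint 2, POLR1A kept it in all 6 fits, NOP56 in 2, and GNL3, NOP2 and RRN3 in 1. In 2D at timepoint 3, NOP56 and NOP2 kept it in 4 of 5 fits, POLR1A in 3 and UBTF in 1. Another scale with the block ended the calls of RRP9, NOP2, POLR1A and POLR1B at timepoint 2 in 3D and of RRN3, WDR12, NAT10 and EEF1A1 at timepoint 3 in 3D. For RRP9 and RRN3 both RLE and header totals did so, for EEF1A1 RLE and for the other 5 header totals. In 2D at timepoint 2 RLE with the block ended the call of NOP2.

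**Figure D3:**
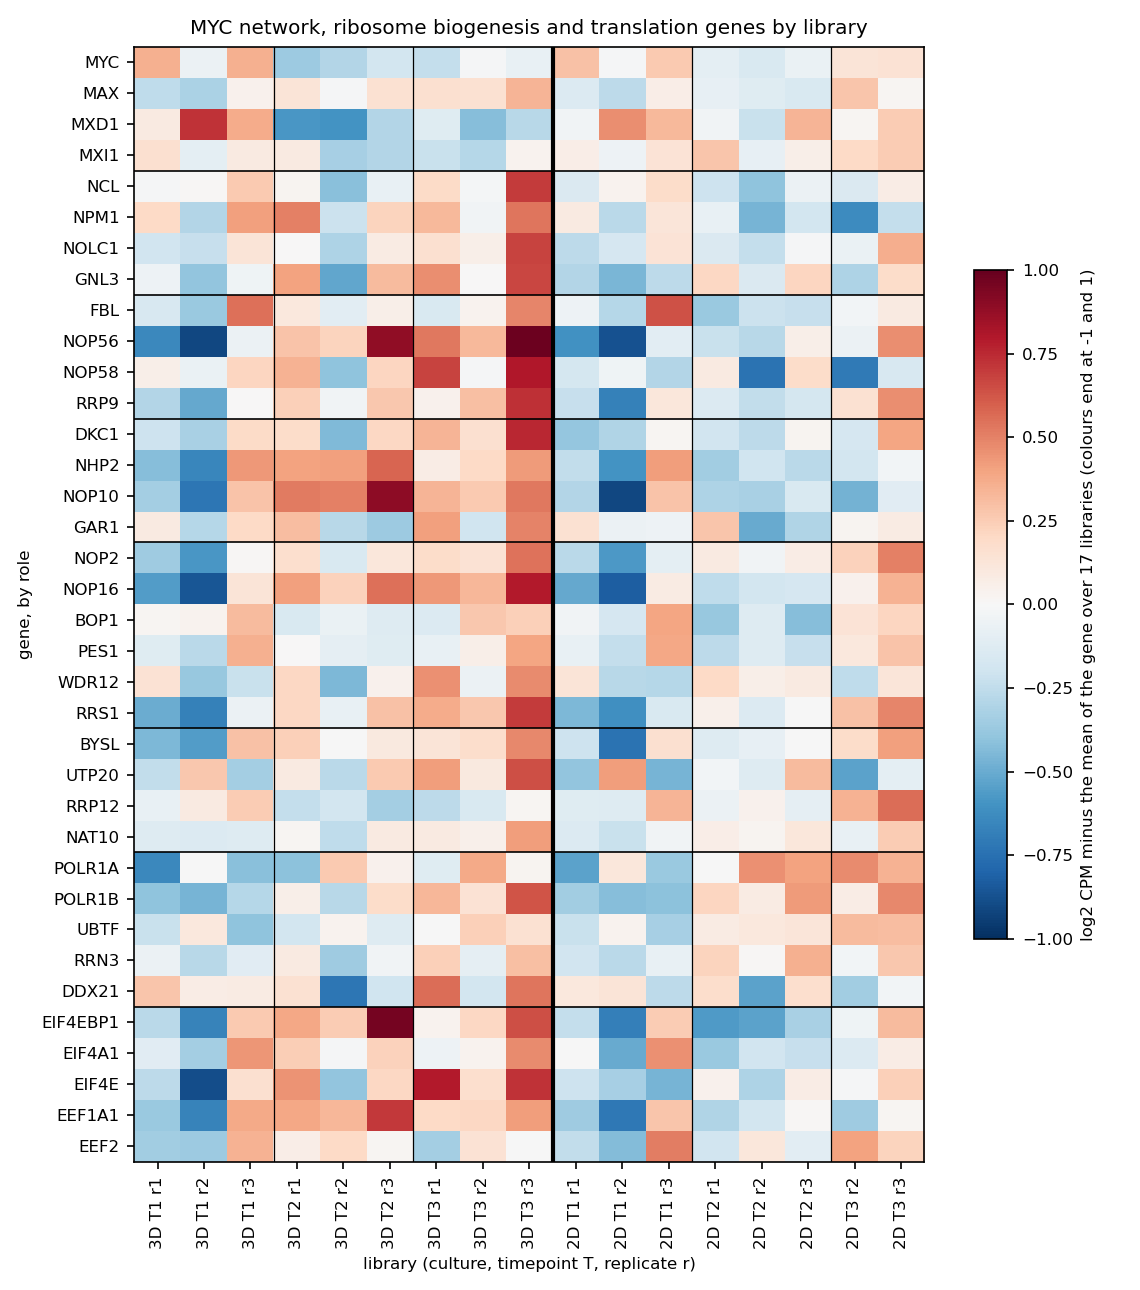
Log2 CPM of each of the 36 genes (rows, by role) in each of the 17 libraries (columns, 3D left, 2D right), as the difference from the gene's mean over the libraries; red is above and blue below the mean. The 3D timepoint 3 libraries are mostly red in the nucleolar rows, and the MYC and MXD1 rows run the other way in 3D.

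As a description of the set, the log2 deviations were averaged over its 27 nucleolar and RNA polymerase I genes. In 3D this mean was -0.20, -0.31 and 0.08 at timepoint 1, 0.15, -0.15 and 0.15 at timepoint 2, and 0.22, 0.10 and 0.52 at timepoint 3, for replicates 1, 2 and 3. In 2D it was -0.21, -0.31 and 0.00 at timepoint 1, -0.05, -0.17 and 0.01 at timepoint 2, and -0.06 and 0.22 for replicates 2 and 3 of timepoint 3. Replicate 2 was the lowest and replicate 3 the highest library of every group, although replicates 1 and 3 of 3D timepoint 2 were nearly equal. The 3D libraries of timepoint 3 all lay above 0, while each earlier 3D group held at least 1 library below 0.

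Among the nucleolar scaffold proteins and chaperones, none of the 4 passed over time without the block. NCL (nucleolin), NPM1 (nucleophosmin), NOLC1, a snoRNP chaperone, and GNL3 (nucleostemin) differed between timepoints 3 and 1 in 3D by 0.23, 0.16, 0.42 and 0.56 on the log2 scale. With the block NOLC1 and GNL3 rose (adjusted p = 0.0155 and 0.00727). In 2D GNL3 rose at timepoint 2 with the block by 0.42 (adjusted p = 0.0405). In 3D GNL3 had 148, 108 and 170.5 CPM at timepoint 3 and 104, 81.9 and 104 CPM at timepoint 1, groups that do not overlap. The gene GLT8D1 lies over GNL3 on the other strand with 26.3% of its mean count, and no source used here states whether counting used strand.

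NOP56, a core scaffold protein of the box C/D snoRNPs that guide ribose methylation, rose at both later timepoints in 3D. In 3D, NOP56 had 294, 245 and 441 CPM at timepoint 1, 558, 537 and 847 CPM at timepoint 2 and 660.0, 575 and 907 CPM at timepoint 3. In 2D it had 302, 251 and 427 CPM, 393, 379.6 and 479 CPM and 439.8 and 635 CPM at those timepoints. The 3D libraries of timepoints 2 and 3 all lay above those of timepoint 1. The log2 difference from timepoint 1 in 3D was 0.99 ± 0.27 at timepoint 2 and 1.13 ± 0.27 at timepoint 3 (adjusted p = 0.0226 and 0.0127). Without 3D timepoint 1 replicate 1 or 2, or replicate 3 of the later timepoint, neither call held (adjusted p = 0.0552 to 0.113). In 2D NOP56 rose with the block, by 0.39 at timepoint 2 and 0.68 at timepoint 3 (adjusted p = 0.0278 and 0.00278, against 0.549 and 0.188 without it). With no filter on low counts NOP56 passed at timepoint 3 in 2D without the block as well. RRP9, which binds the snoRNA of early pre-ribosomal RNA cleavage, rose in 3D with the block, by 0.43 at timepoint 2 and 0.64 at timepoint 3 (adjusted p = 0.0497 and 0.00766). The call at timepoint 2 was lost with RLE, with header totals and in each fit that left out 1 library. FBL, the methyltransferase of these particles, and NOP58, the paralogue of NOP56, differed by 0.09 and 0.46 between timepoints 3 and 1 in 3D and passed in no comparison over time.

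NOP10, the smallest protein of the box H/ACA snoRNPs that guide pseudouridine formation, rose at timepoint 2 in 3D. In 3D, NOP10 had 43.0, 33.1 and 66.4 CPM at timepoint 1, 78.2, 77.3 and 101 CPM at timepoint 2 and 68.8, 65.5 and 78.7 CPM at timepoint 3. In 2D it had 44.5, 29.0 and 66.5 CPM, 44.0, 43.5 and 49.0 CPM and 39.3 and 50.5 CPM. The 3D libraries of timepoint 2 all lay above those of timepoint 1, by 0.85 ± 0.27 on the log2 scale (adjusted p = 0.0447), and the 2D groups overlapped. That call was lost with RLE scaling (adjusted p = 0.0550) and without any library of these groups other than 3D timepoint 1 replicate 3 (0.0560 to 0.189). NHP2, another core protein, rose with the block at timepoint 2 in 3D by 0.66 (adjusted p = 0.0200). RMND5B overlaps NHP2 on the other strand and has 66.1% of its mean count, so the NHP2 value is uncertain. DKC1, the pseudouridine synthase, rose with the block in 3D between timepoints 1 and 3 by 0.53 (adjusted p = 0.00599), and GAR1 passed in no comparison, with 10.3 to 20.6 CPM over all libraries.

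Of the 6 large subunit assembly factors, 3 rose in 3D between timepoints 1 and 3. RRS1, which helps dock the smaller ribosomal RNA of the large subunit, had 7.41, 6.55 and 10.0 CPM at timepoint 1, 12.1, 9.93 and 12.9 CPM at timepoint 2 and 13.5, 12.6 and 17.1 CPM at timepoint 3 in 3D. In 2D it had 7.65, 6.82 and 9.41 CPM, 10.8, 9.50 and 10.4 CPM and 12.9 and 14.7 CPM. In both cultures the libraries of timepoint 3 lay wholly above those of timepoint 1. The log2 difference between timepoints 3 and 1 was 0.85 ± 0.19 in 3D and 0.79 ± 0.21 in 2D (adjusted p = 0.00915 and 0.0412). The 3D call was lost without 3D timepoint 1 replicate 2 (adjusted p = 0.0553) or 3D timepoint 3 replicate 3 (0.0554), and the 2D call with no filter (0.0623) and without 2D timepoint 1 replicate 1 or 2 or either 2D timepoint 3 library (0.117 to 0.262). AC009879.2 overlaps RRS1 on the same locus with 10.5% of its mean count.

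NOP16 had 133, 108 and 214 CPM at timepoint 1, 260.2, 229.6 and 286 CPM at timepoint 2 and 264, 247 and 339 CPM at timepoint 3 in 3D, and 137, 111 and 207 CPM, 164, 172 and 174 CPM and 201 and 248 CPM in 2D. It rose in 3D by 0.77 ± 0.25 at timepoint 2 and 0.90 ± 0.25 at timepoint 3 against timepoint 1 (adjusted p = 0.0459 and 0.0272). The lowest later 3D library exceeded the highest 3D library of timepoint 1, which was replicate 3. At timepoint 2 the call was lost with RLE scaling (adjusted p = 0.0584) and without any library other than 3D timepoint 1 replicate 3 (0.0531 to 0.194). At timepoint 3 it was lost without 3D timepoint 1 replicate 1 or 2 or 3D timepoint 3 replicate 1 or 3 (0.0504 to 0.129). NOP2, a ribosomal RNA methyltransferase, had 149, 127 and 192 CPM at timepoint 1, 214, 172 and 206 CPM at timepoint 2 and 217, 211 and 278 CPM at timepoint 3 in 3D, and 159, 128 and 178 CPM, 203, 186 and 201 CPM and 223 and 271 CPM in 2D. It rose between timepoints 1 and 3 by 0.59 ± 0.18 in 3D (adjusted p = 0.0445), and in 2D by 0.69 with the block (adjusted p = 0.00312, against 0.0649 without). The 3D call was lost with RLE scaling (0.0601), with no filter (0.0792) and without any library other than 3D timepoint 1 replicate 3 (0.0509 to 0.195). AC006064.6 overlaps NOP2 with 47.4% of its mean count. BOP1, PES1 and WDR12 form 1 complex of large subunit maturation. BOP1 and PES1 differed by 0.00 and 0.12 between timepoints 3 and 1 in 3D and passed in no comparison in the fits of the 17 libraries scaled by TMM, with or without the block. With the block BOP1 passed for timepoint 2 against 1 in 3D with header totals and in 2D without 2D timepoint 1 replicate 2. WDR12 rose with the block by 0.45 (adjusted p = 0.0223), and CARF overlaps it on the other strand with 15.2% of its mean count.

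Among the small subunit assembly factors, none of the 4 passed over time without the block in the 17 libraries scaled by TMM. Without the block RRP12 was lower at timepoint 2 than at timepoint 1 in 3D with header totals as scale, and BYSL passed for timepoint 3 against 1 in 3D without 3D timepoint 1 replicate 3. The acetyltransferase NAT10 rose with the block between timepoints 1 and 3 in 3D, by 0.32 (adjusted p = 0.0321). BYSL, UTP20 and RRP12, an export factor, differed by 0.46, 0.48 and -0.22 in 3D and by 0.52, -0.21 and 0.41 in 2D, so RRP12 and UTP20 had opposite signs in the cultures. Their differences between the cultures, -0.63 ± 0.23 and 0.69 ± 0.39, did not pass (adjusted p = 0.490 and 0.644).

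POLR1B, a core catalytic subunit of RNA polymerase I, passed without the block in 3 comparisons, the most of the set. In 3D, POLR1B had 79.0, 75.6 and 85.6 CPM at timepoint 1, 108, 86.1 and 118 CPM at timepoint 2 and 131, 115 and 161 CPM at timepoint 3. In 2D it had 81.8, 77.6 and 78.4 CPM, 121, 110.1 and 139.9 CPM and 109 and 145 CPM. Every library of timepoint 2 and of timepoint 3 lay above every library of timepoint 1 in its culture. The log2 difference from timepoint 1 was 0.76 ± 0.17 at timepoint 3 in 3D (adjusted p = 0.00736), 0.64 ± 0.17 at timepoint 2 in 2D (adjusted p = 0.0313) and 0.68 ± 0.18 at timepoint 3 in 2D (adjusted p = 0.0417). At timepoint 2 in 3D it was 0.38 ± 0.17 and passed with the block only (adjusted p = 0.0171, against 0.135 without). The 2D call at timepoint 2 held without 2D timepoint 2 replicate 2 and was lost without any other 1 library (0.0782 to 0.137). At timepoint 3 it was lost without any 1 library (0.0747 to 0.364) and with no filter (0.0618). POLR1A, the largest subunit, rose with the block in both cultures, by 0.45 in 3D and 0.53 in 2D between timepoints 1 and 3 (adjusted p = 0.00676 and 0.0102). RRN3, an initiation factor, rose with the block in 3D between timepoints 1 and 3 and in 2D between timepoints 1 and 2, by 0.30 and 0.38 (adjusted p = 0.0448 and 0.0242). The 3D call was lost with RLE, with header totals and in each of the 6 fits that left out 1 library, and the 2D call in 5 of 6. In all, 3 pseudogenes hold 3.16% of the mean count of RRN3. UBTF, which shapes ribosomal DNA chromatin, rose in 2D between timepoints 1 and 3 with the block by 0.45 (adjusted p = 0.0333). The helicase DDX21 differed by 0.19 in 3D and -0.18 in 2D and passed in no comparison.

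EIF4E, the cap-binding protein that limits translation initiation, rose in 3D. It had 9.65, 6.25 and 13.0 CPM at timepoint 1, 15.9, 8.82 and 13.4 CPM at timepoint 2 and 20.1, 13.0 and 19.1 CPM at timepoint 3 in 3D, and 10.0, 9.18 and 8.38 CPM, 11.9, 9.37 and 12.2 CPM and 11.5 and 13.7 CPM in 2D. The 3D groups of timepoints 3 and 1 touched, with replicate 2 of timepoint 3 just above replicate 3 of timepoint 1. The log2 difference between these groups was 0.86 ± 0.26 (adjusted p = 0.0446), and in 2D it was 0.46 ± 0.29 (adjusted p = 0.417). The 3D call was lost without replicate 1 or 2 of 3D timepoint 1 or replicate 1 or 3 of 3D timepoint 3 (0.108 to 0.192). EEF1A1, the main elongation factor, rose with the block in 3D, by 0.68 at timepoint 2 and 0.48 at timepoint 3 (adjusted p = 0.00712 and 0.0441). Its 39 pseudogenes held 1.60% of its mean count. EIF4A1 and EEF2, an RNA helicase and the translocation factor, differed by 0.14 and 0.03 between timepoints 3 and 1 in 3D and passed in no comparison. The overlapping genes AC016876.2 and SENP3-EIF4A1 hold 14.0% of the mean count of EIF4A1.

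**Figure D4:**
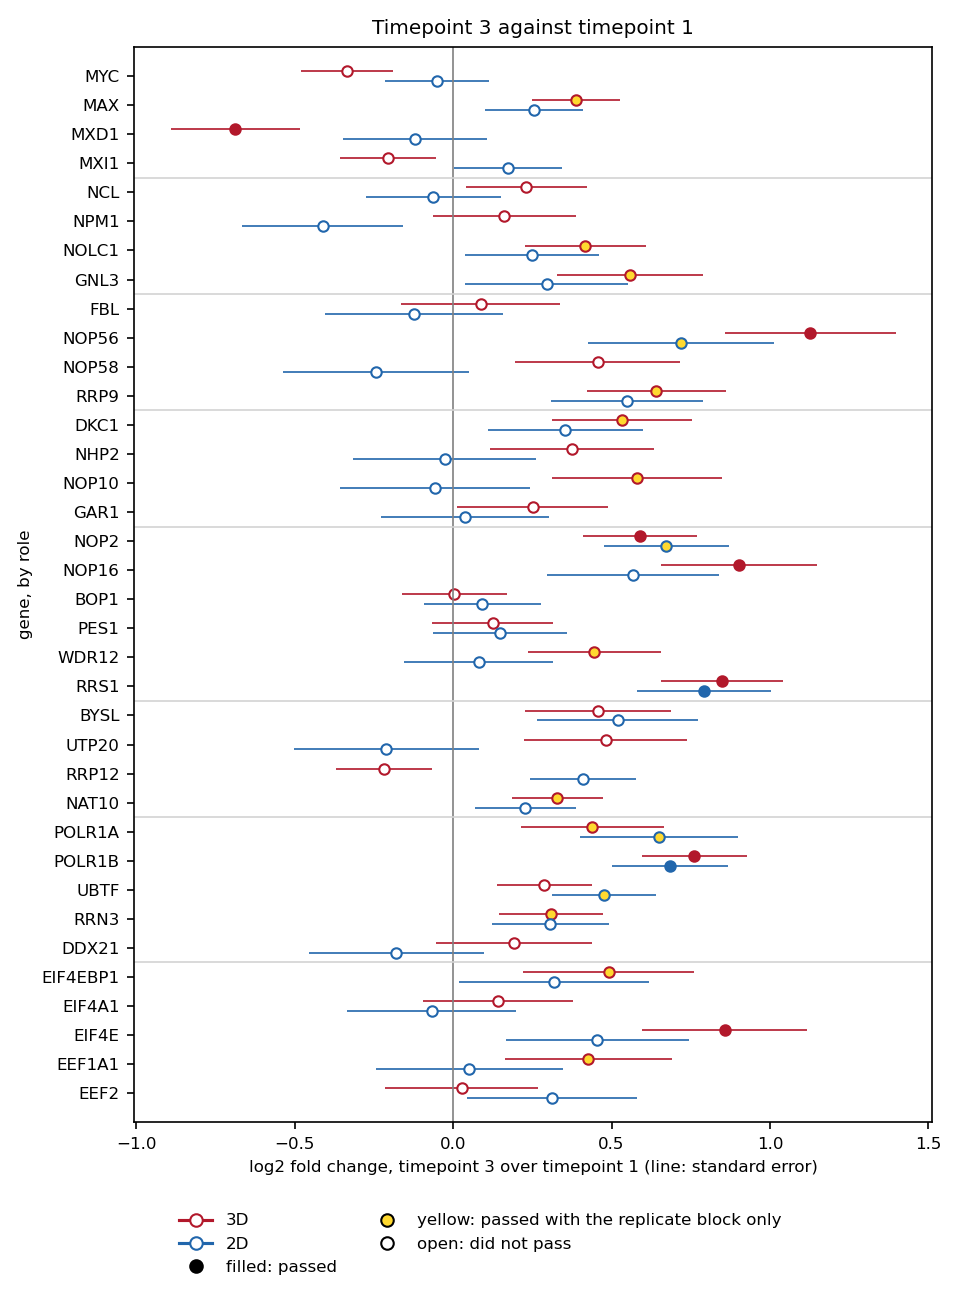
Log2 fold change of timepoint 3 over timepoint 1 for each of the 36 genes in 3D and in 2D (edgeR; lines are standard errors); filled points passed at an adjusted p under 0.05, yellow points passed with the replicate block and not without it. In 3D 32 of 36 points lie above 0 and 7 are filled, and in 2D 25 lie above 0 and RRS1 and POLR1B are filled.

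In 2D, at timepoint 3 against timepoint 1, RRS1 and POLR1B rose, 2 of 36 (5.56%), which is close to the 4.86% of all tested genes. With the block 6 rose, NOP56, NOP2, RRS1, POLR1A, POLR1B and UBTF (16.7%, against 10.5% of all), and DESeq2 called 4 (8.54% of all). Ranges did not overlap for 12 genes at timepoint 3 and 8 at timepoint 2, against 34.5% and 24.3% of all. The median log2 difference was 0.24, against -0.02 over all tested genes. At timepoint 2, POLR1B alone passed, 1 of 36 against 5.87% of all tested genes, DESeq2 called 1 (9.53% of all), and 6 passed with the block (against 13.7% of all), with a median of 0.04 against 0.00. The count at timepoint 3 became 0 without 2D timepoint 1 replicate 1 or 2 or 2D timepoint 3 replicate 2 or 3. The count at timepoint 2 became 0 without any library of 2D timepoint 1 or without 2D timepoint 2 replicate 1 or 3. With the block the 6 became 2 at timepoint 2 without 2D timepoint 1 replicate 1 or 2D timepoint 2 replicate 1 or 2, and 3 without 2D timepoint 1 replicate 3. At timepoint 3 they became 1 and 3 without 2D timepoint 3 replicate 2 and 3.

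Between timepoints 3 and 2 no gene of the set passed in either culture. In 3D edgeR called 0 of 36 (0% of all tested genes), with 3 genes at an unadjusted p under 0.05 (5.12% of all), and DESeq2 called 0 (0.156% of all). With the block edgeR called 0 (0% of all), with 13 genes at an unadjusted p under 0.05 (10.3% of all). In 2D edgeR called 0 (0% of all), with 2 at an unadjusted p under 0.05 (6.82% of all), and DESeq2 called 0 (0.129% of all). With the block it called 0 (0.0377% of all), with 8 at an unadjusted p under 0.05 (10.1% of all). Ranges of timepoints 3 and 2 did not overlap for 1 gene in 3D and 16 in 2D, against 10.5% and 31.4% of all. The medians were 0.22 in 3D and 0.20 in 2D, against -0.01 and -0.02 over all tested genes, and 31 of 36 genes in 3D lay above 0.

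Between 3D and 2D no gene of the set passed at timepoint 1. There edgeR, edgeR with the block and DESeq2 called 0 of 36 genes (0% of all tested genes), with 0 at an unadjusted p under 0.05 (1.31% of all by edgeR, 2.09% with the block). The ranges did not overlap for 0 genes, against 3.26% of all. The median log2 difference was 0.01, against 0.00 over all tested genes. A p that misses the threshold does not show equal levels.

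At timepoint 2 no gene passed without the block and 8 passed with it. By edgeR 0 of 36 passed (1.49% of all tested genes), with 7 at an unadjusted p under 0.05 (20.1% of all), and DESeq2 called NOP10 and EIF4EBP1 (7.19% of all). With the block NPM1, NOP56, NHP2, NOP10, NOP16, EIF4EBP1 and EEF1A1 were higher and POLR1A was lower in 3D (22.2%, against 15.9% of all, 9.00% higher and 6.86% lower). For 16 of 36 genes the CPM ranges of 3D and 2D did not overlap, against 27.8% of all tested genes. The median log2 difference was 0.14, against -0.03 over all tested genes. With library totals from the headers as scale both medians move, to -0.05 and -0.23, and the split with the block becomes 6 higher and 7 lower, against 914 higher and 2863 lower over all tested genes. At this timepoint mitochondrial genes took 0.364% to 0.482% of counts in 3D libraries, against 0.908% to 1.18% in 2D libraries. Summed counts were 5.54 to 5.73 times the header totals in 3D, against 4.96 to 5.26 times in 2D. The part of these differences in the result was not tested. With the block the count of 8 became 3 without 2D timepoint 2 replicate 1 or 3 or 3D timepoint 2 replicate 1, and 4 without 3D timepoint 2 replicate 2. NPM1 kept the call in 3 of 6 such fits and lost it with header totals, NHP2, NOP16 and EEF1A1 kept it in 2 and POLR1A in 1.

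EIF4EBP1, the inhibitory binding partner of EIF4E, had the largest difference of the set between the cultures at timepoint 2. There it had 60.0, 54.5 and 88.9 CPM in 3D and 30.9, 31.6 and 36.7 CPM in 2D, without overlap. At timepoint 1 it had 38.1, 28.8 and 55.0 CPM in 3D and 38.8, 28.5 and 54.6 CPM in 2D, and at timepoint 3 47.0, 52.8 and 71.5 CPM in 3D and 44.4 and 56.9 CPM in 2D. The groups overlapped at those timepoints, and at timepoint 1 libraries of the same replicate number were nearly equal in both cultures. With the block EIF4EBP1 also rose in 3D, by 0.75 at timepoint 2 and 0.52 at timepoint 3 against timepoint 1 (adjusted p = 0.00174 and 0.0179). The log2 difference at timepoint 2 was 1.04 ± 0.27 (adjusted p = 0.0632), 1.00 ± 0.14 with the block (adjusted p = 0.000913), and DESeq2 gave an adjusted p of 0.0117. In the authors' deposited table for timepoint 2 the adjusted p was 0.0583. NOP10 had 78.2, 77.3 and 101 CPM in 3D and 44.0, 43.5 and 49.0 CPM in 2D at timepoint 2, a difference of 0.90 ± 0.17 with the block (adjusted p = 0.00447) and 0.91 ± 0.27 without it (adjusted p = 0.0887). NOP56, NOP10 and EIF4EBP1 passed with the block in each of the 6 fits that left out 1 library.

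The other genes that passed at timepoint 2 had smaller differences than EIF4EBP1 and NOP10. With the block NHP2, NOP16, EEF1A1 and NPM1 were higher in 3D by 0.73, 0.59, 0.63 and 0.42 on the log2 scale (adjusted p = 0.0220, 0.0227, 0.0205 and 0.0292). NHP2 had 194, 195 and 220.1 CPM in 3D and 115, 127 and 122 CPM in 2D. EEF1A1 had 1618, 1555 and 2017 CPM in 3D and 1003, 1086 and 1244 CPM in 2D. Both genes separated the cultures without overlap. POLR1A had 38.9, 62.0 and 53.4 CPM in 3D and 51.7, 71.2 and 68.6 CPM in 2D, and the groups overlapped although each pair of 1 number was lower in 3D. Its difference with the block was -0.32 ± 0.10 (adjusted p = 0.0483). All 5 listed RNA polymerase I genes had a difference below 0, with a median of -0.24, and all 8 snoRNP proteins had one above 0. Of these 5 only POLR1A passed, and only with the block. The other RNA polymerase I genes with the smallest p with the block, POLR2K, POLR2H and POLR1H, went the other way. Their differences without the block were 0.91, 0.81 and 0.75 (adjusted p = 0.0705, 0.0685 and 0.0993, edgeR). With the block all of them passed as higher in 3D (adjusted p = 0.000448, 0.00347 and 0.0114).

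At timepoint 3 no gene passed without the block and 6 passed with it. By edgeR 0 of 36 passed (1.50% of all tested genes), with 6 at an unadjusted p under 0.05 (19.1% of all), and DESeq2 called NOP58 and RRP12 (5.49% of all). With the block NPM1, NOP56, NOP58 and NOP10 were higher and MXI1 and RRP12 were lower in 3D (16.7%, against 9.75% of all, 4.45% higher and 5.30% lower). The ranges did not overlap for 12 of 36 genes, against 39.0% of all tested genes, with only 2 libraries in 2D. The median log2 difference was 0.14, against 0.02 over all tested genes. NOP58 had 72.6, 45.2 and 79.2 CPM in 3D and 27.9 and 40.6 CPM in 2D, a difference of 0.86 ± 0.22 with the block (adjusted p = 0.0240, against 0.128 without). RRP12 had 76.9, 82.9 and 93.3 CPM in 3D and 117 and 135 CPM in 2D, -0.54 ± 0.14 with the block (adjusted p = 0.0250, against 0.0975 without). Neither gene overlapped between the groups. NPM1 had 1025, 799.7 and 1188 CPM in 3D and 529 and 695 CPM in 2D (0.64 ± 0.14 with the block, adjusted p = 0.0104), and its 46 pseudogenes held 0.485% of its mean count. With the block the count of 6 became 0 without 2D timepoint 3 replicate 2 or 3, 1 without 3D timepoint 3 replicate 1 or 3, and 2 without 3D timepoint 3 replicate 2. NPM1 kept the call in 2 of these 5 fits, MXI1 and NOP58 in 1, and NOP56, NOP10 and RRP12 in 0, and with header totals NOP58 lost it. Mitochondrial genes took 0.398% to 0.533% of counts in 3D libraries, against 0.589% to 0.684% in the 2 libraries of 2D. The 12 basal epithelial markers summed to 5791 to 8949 CPM in 3D libraries, against 9870 to 11267 CPM in 2D libraries. The luminal markers summed to 469 to 623 CPM in 3D, against 737 to 785 CPM in 2D. Their part in the result was not tested. In the authors' deposited tables none of the 36 genes had an adjusted p under 0.05 at any timepoint, and the lowest were 0.0583 for EIF4EBP1 at timepoint 2 and 0.0696 for RRP12 at timepoint 3.

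**Figure D5:**
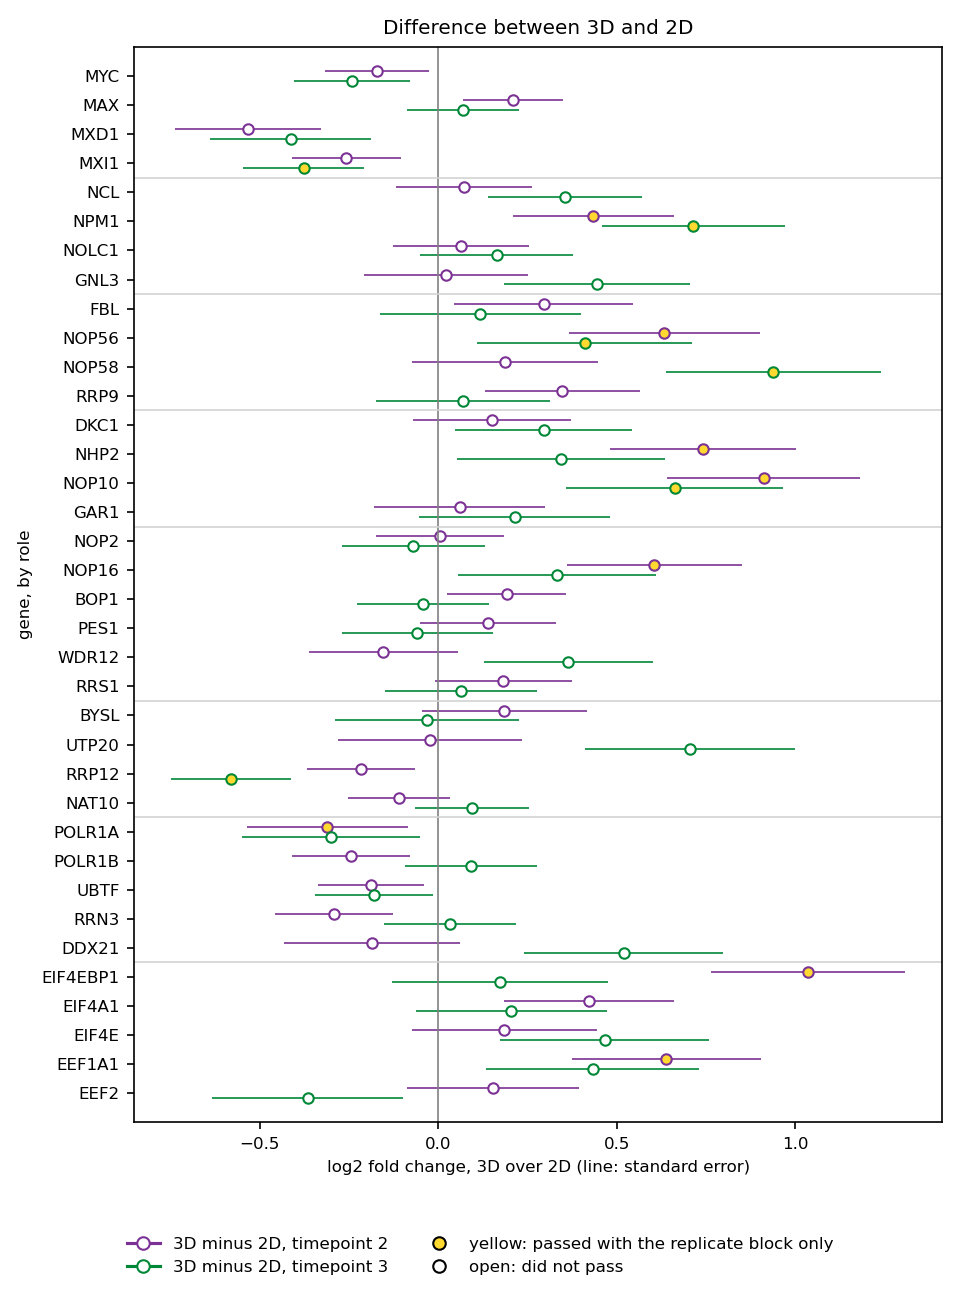
Log2 fold change of 3D over 2D for each of the 36 genes at timepoint 2 and at timepoint 3 (edgeR without the block; lines are standard errors); yellow points passed with the replicate block and not without it. The largest values are 1.04 for EIF4EBP1 and 0.91 for NOP10 at timepoint 2 and 0.94 for NOP58 at timepoint 3. All 5 listed RNA polymerase I genes lie below 0 at timepoint 2, and none of them passed there without the block.

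Whether the change over time differed between the cultures was tested as an interaction. For timepoint 2 against 1, edgeR called 0 of 36 genes (0% of all tested genes), with 4 at an unadjusted p under 0.05 (8.73% of all), and DESeq2 called 0 (0.221% of all). With the block EIF4EBP1 alone passed, by 1.00 ± 0.20 on the log2 scale (adjusted p = 0.0307, against 0.528 without), against 1.31% of all tested genes. That call was lost in 9 of the 12 fits that left out 1 library. The block count was 3 without 2D timepoint 1 replicate 2, with NOP56 and NOP10 besides EIF4EBP1. It was 4 without 3D timepoint 1 replicate 3, with NOP56, NHP2 and NOP10 besides it. For timepoint 3 against 1, edgeR called 0 (0.183% of all), with 1 at an unadjusted p under 0.05 (8.27% of all), and DESeq2 called 0 (0.785% of all). With the block it called 0 (1.56% of all), with 6 at an unadjusted p under 0.05 (15.0% of all). With the block and header totals as scale RRP12 alone passed, as lower, against 66 higher and 355 lower over all tested genes. The higher count of genes that passed in 3D than in 2D is thus not shown to be a difference between the cultures. For EIF4EBP1 such a difference rests on the block, and its call depended on single libraries.

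Other genes of the same pathways were listed from general knowledge, with earlier results of these data known. Their counts beside those of all tested genes are therefore descriptions only. Of the 11 other tested genes of the MYC network, MNT, a repressor, fell in both cultures and MLX, a partner of the MXD proteins, rose in 3D. MNT had 22.3, 27.8 and 26.3 CPM at timepoint 1, 6.22, 12.5 and 8.26 CPM at timepoint 2 and 6.68, 10.3 and 6.62 CPM at timepoint 3 in 3D, and 23.7, 34.6 and 37.8 CPM, 9.98, 14.5 and 10.7 CPM and 14.3 and 10.7 CPM in 2D. All later libraries lay under those of timepoint 1 in both cultures. The log2 difference at timepoint 2 was -1.50 ± 0.27 in 3D and -1.45 ± 0.27 in 2D (adjusted p = 0.00171 and 0.00378). At timepoint 3 it was -1.70 ± 0.27 in 3D and -1.36 ± 0.31 in 2D (adjusted p = 0.000658 and 0.0176). MLX rose in 3D by 0.81 ± 0.17 at timepoint 2 (adjusted p = 0.00522).

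Of 16 other RNA polymerase I genes, POLR1H and the shared subunit POLR2K rose in 3D at both later timepoints, with differences of 0.89 ± 0.23 and 0.98 ± 0.25 at timepoint 3 (adjusted p = 0.0211 and 0.0185). Of 44 other small subunit factors 4 rose between timepoints 1 and 3 in 3D and 16 with the block, and of 46 other large subunit factors 6 rose and 19 with the block. None of either list fell, and of all tested genes 4.07% rose, or 11.4% with the block. IMP3, a protein of the early cleavage particle, rose in 3D by 1.20 ± 0.19 and in 2D by 0.98 ± 0.20 (adjusted p = 0.000492 and 0.0104). The helicase DDX10 rose by 1.22 ± 0.22 in 3D and 0.91 ± 0.24 in 2D (adjusted p = 0.00184 and 0.0390). The medians of the small and large subunit lists between timepoints 3 and 1 were 0.40 and 0.36 in 3D and 0.16 and 0.15 in 2D, against 0.04 and -0.02 over all tested genes.

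Of 36 other MYC targets 7 rose and 1 fell between timepoints 1 and 3 in 3D, and 1 rose in 2D. Of all tested genes 4.07% rose and 6.95% fell there in 3D, and 4.86% passed in 2D. HK2, the hexokinase that starts glycolysis, rose in both, by 0.85 ± 0.17 in 3D and 0.97 ± 0.19 in 2D (adjusted p = 0.00413 and 0.00689). GPAM, an enzyme of glycerolipid synthesis, rose by 1.39 ± 0.34 in 3D (adjusted p = 0.0149). At timepoint 2 against 1 in 2D GPAM rose and TYMS fell, with log2 differences of 1.35 ± 0.34 and -1.25 ± 0.25 (adjusted p = 0.0274 and 0.00696, edgeR). At timepoint 3 against 1 in 2D TYMS was lower with the block only (-0.72, adjusted p = 0.0296, against 0.179 without). HSPE1, the mitochondrial co-chaperonin, had 146, 107 and 164 CPM in 3D and 64.6 and 78.6 CPM in 2D at timepoint 3 and was the 1 target that passed there between the cultures by edgeR without the block (0.96 ± 0.23, adjusted p = 0.0485). Of all tested genes 1.50% passed there. With the block 8 targets were higher and 1 lower in 3D, against 4.45% and 5.30% of all tested genes. DESeq2 called 3 targets, against 5.49% of all. Of 45 other translation factors, EIF4H, a helper of the helicase EIF4A1, and EIF4EBP2, a relative of EIF4EBP1, fell at timepoint 2 in 3D, with log2 differences of -0.44 ± 0.14 and -0.39 ± 0.13 (adjusted p = 0.0413 and 0.0486) by edgeR without the block. In that comparison 7.76% of all tested genes fell without the block. Of the translation factors 0 rose without the block and 13 with it, against 7.31% and 14.8% of all tested genes. DESeq2 called 2 of them, against 19.7% of all. In 2D EIF4A2, a paralogue of EIF4A1, rose at timepoint 2 by 0.69 ± 0.17 (adjusted p = 0.0270).

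The 79 cytosolic ribosomal protein genes, the structural products of the pathway, had higher log2 differences than the listed genes at timepoint 2 by median. Between 3D and 2D their median log2 difference there was 0.99 and all 79 lay above 0. By edgeR 0 passed (1.49% of all tested genes), with 73 at an unadjusted p under 0.05 (20.1% of all), while 63 were higher with the block (9.00% of all) and DESeq2 called 25 (7.19% of all). At timepoint 2 against timepoint 1 in 3D 35 rose (7.31% of all tested genes), 74 with the block (14.8% of all), and the median was 1.05, against 0.04 in 2D. RPS20 had 2757, 4451 and 4015 CPM at timepoint 2 and 1046, 802 and 2359 CPM at timepoint 1 in 3D (1.42 ± 0.37, adjusted p = 0.0188), with the replicate 3 library of timepoint 1 far above its other 2. At timepoint 3 the median against timepoint 1 in 3D was 0.73 and 2 rose (4.07% of all), 38 with the block (11.4% of all). Between timepoints 3 and 2 in 3D it was -0.37, where the 36 listed genes had 0.22. Ribosomal protein genes have many processed copies in the genome, so their counts are less certain than those of the assembly factors.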

How the data were processed

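Poly-A RNA was sequenced as 50 bp single-end reads. The submitters' processing notes name STAR 2.7.1a, HOMER, edgeR, limma and hg38; no source used here names the annotation release or the counting strand. The deposited counts per gene are raw, per the file headers and the values. The authors' deposited tables of 3D against 2D give log2 fold changes and adjusted p-values, which were read as deposited; limma's t and log odds scores in those deposited tables were not used. The members and lists were chosen with earlier results of these data known.

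Of 18 libraries 17 entered the fit. 2D timepoint 3 replicate 1 was left out, since the raw table is the only file its labels name. Genes were filtered with filterByExpr (18592 of 60662 kept), scaled by TMM and tested with edgeR 4.0.16 (R 4.3.3) by quasi-likelihood in 1 model of 6 groups, with Benjamini-Hochberg adjustment over all tested genes and a threshold of 0.05. CPM was computed from the counts with TMM. The steps were run on simulated counts with changes set in 3D timepoint 2 alone. The simulation held no effect of replicate number, so it did not test the block under such an effect. Alternatives were RLE, header totals, no filter, DESeq2 1.42.0, all 18 libraries, each library left out, and the replicate number as a block. Libraries of the same number deviated together from their group means (mean correlation 0.324, range 0.186 to 0.514 over 8 pairs). For different numbers the mean was -0.161. Deviations from a group mean cancel within the group, so that value largely mirrors the first and is no separate measure. All 36 genes are named, those that passed with values per library, and up to 3 genes with the smallest p from each other list.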

Additional observations from a re-analysis of the deposited data

Results flagged for a closer look

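The change of EIF4EBP1 between timepoints 1 and 2 differed between the cultures with the replicate block, by 1.00 on the log2 scale (adjusted p = 0.0307, edgeR). Pairs of the same replicate number were higher in 3D in 3 of 3 at timepoint 2. Without the block the difference was 1.04 (adjusted p = 0.528), and over the fits that left out 1 library without the block the adjusted p ran from 0.123 to 0.973.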

How the results depend on the processing

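The number of the 36 genes that passed depended on the replicate block, on the filter and on single libraries. Between 3D and 2D at timepoint 2 the count was 0, and it was 3 with no filter on low counts, 2 by DESeq2 and 8 with the replicate block. At timepoint 3 it was 0, and it was 1 with header totals, 1 with no filter, 2 by DESeq2 and 6 with the replicate block. For timepoint 2 against 1 in 3D the 5 became 3 with RLE, 13 with the replicate block and 1 to 8 when 1 library was left out. For timepoint 3 against 1 in 3D the 7 became 19 with the replicate block and 1 to 13 with 1 library left out. In 2D the 1 at timepoint 2 became 6 with the replicate block and 0 to 1 with 1 library left out. The 2 at timepoint 3 became 1 with no filter, 4 by DESeq2, 6 with the replicate block and 0 to 2 with 1 library left out. The interaction for timepoint 2 had 0, and 1 with the replicate block.

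Other settings combined with the replicate block were chosen after seeing the data. With the replicate block, header totals as scale gave 13 in place of 8 between the cultures at timepoint 2 and 10 in place of 6 for timepoint 3 against 1 in 2D. With 1 library left out, the block counts ran over 3 to 9 and 0 to 2 between the cultures at timepoints 2 and 3, 7 to 12 and 13 to 18 for timepoints 2 and 3 in 3D, 2 to 5 and 1 to 8 in 2D, and 0 to 4 for the interaction. Leaving out a library of 2D timepoint 3 leaves 1, which is assumed to vary like the other groups. Of 702 alternative values for 59 gene results, 570 kept direction and side of the threshold, 62 lost the call, 70 gained it and 0 reversed. The cause was not tested. Reads appear counted more than once, so no counting intervals are given.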
